A study of Mus musculus with 6 samples.

Results

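The genes of respiratory complexes II to V were compared between the hippocampus of Rsk2-KO male mice and that of their WT male littermates. Members were all genes with a single annotated symbol that was Sdha, Sdhb, Sdhc, Sdhd or Cycs or began with Uqcr, Cox4 to Cox8 or Atp5, each represented by its probe set with the highest mean log2 signal. This gave 46 of the 12394 annotated genes: 4 of complex II, 8 of complex III, 16 of complex IV, 17 of complex V and Cycs. Cox7a2l, a relative of Cox7a2 that acts in the joining of complexes III and IV, was counted with complex IV by its symbol. The study compared the 2 genotypes to find altered molecular pathways. RNA came from 6 arrays, 3 of each genotype, all from C57BL/6J mice aged 2 months with no treatment given in the labels. Each array held a pool of 2 hippocampi, and 6 micrograms of total RNA were labelled. Rsk2 is a protein kinase downstream of ERK, encoded by the X-linked gene Rps6ka3; the labels describe the allele only as Rsk2-KO. Values are MAS5 signals, a background-corrected brightness in arbitrary units scaled to a common mean on each array.

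Mitochondria make most of a neuron's ATP by passing electrons along the complexes of the inner membrane and using the proton gradient this builds. Complex II oxidises succinate and is also an enzyme of the tricarboxylic acid cycle; complex III passes electrons to cytochrome c, complex IV passes them on to oxygen, and complex V makes ATP. Synaptic signalling and ion pumping give brain tissue a high demand for this pathway. All 4 subunits of complex II are encoded in the nucleus, whereas the core of complex IV and parts of complexes III and V are mitochondrially encoded. The members here, picked by symbol, are nuclear genes alone.

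Promoters of respiratory genes are known for sites of the transcription factors NRF-1 and NRF-2 (GABP), and Cycs also for sites of CREB, a factor that RSK kinases can phosphorylate. The 4 stretches below are shown because they hold the member that differed most upward, Cycs, beside 3 members with downward differences that share a motif with it or hold none; they were chosen after the matches and values were seen. Each is the 250 bases before the RefSeq start site, on the strand of the gene, in build GRCm38.p6. Capitals mark the letters GCATGCGC (NRF-1) or TGACGTCA (the cAMP response element, CRE) on either strand, where overlapping matches form a longer run. The window of Cycs is chr6:50566570-50566819, that of Uqcrfs1 chr13:30545317-30545566, that of Cox6a1 chr5:115348959-115349208 and that of Cox8a chr19:7217617-7217866, all on the minus strand.
Cycs: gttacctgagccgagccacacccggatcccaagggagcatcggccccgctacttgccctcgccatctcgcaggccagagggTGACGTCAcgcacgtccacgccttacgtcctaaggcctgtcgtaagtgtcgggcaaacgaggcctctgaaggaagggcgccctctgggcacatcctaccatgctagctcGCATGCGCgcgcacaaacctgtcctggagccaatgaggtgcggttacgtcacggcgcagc
Uqcrfs1: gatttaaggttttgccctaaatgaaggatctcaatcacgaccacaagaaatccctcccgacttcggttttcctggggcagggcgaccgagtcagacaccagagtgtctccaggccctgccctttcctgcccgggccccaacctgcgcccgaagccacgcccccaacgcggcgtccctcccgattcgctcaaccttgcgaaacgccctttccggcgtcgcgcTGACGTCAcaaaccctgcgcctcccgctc
Cox6a1: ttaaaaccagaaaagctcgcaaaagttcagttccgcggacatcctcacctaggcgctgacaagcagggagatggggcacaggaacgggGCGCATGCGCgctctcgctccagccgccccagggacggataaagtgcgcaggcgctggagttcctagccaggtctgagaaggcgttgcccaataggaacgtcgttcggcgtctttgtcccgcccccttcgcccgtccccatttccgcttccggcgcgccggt
Cox8a: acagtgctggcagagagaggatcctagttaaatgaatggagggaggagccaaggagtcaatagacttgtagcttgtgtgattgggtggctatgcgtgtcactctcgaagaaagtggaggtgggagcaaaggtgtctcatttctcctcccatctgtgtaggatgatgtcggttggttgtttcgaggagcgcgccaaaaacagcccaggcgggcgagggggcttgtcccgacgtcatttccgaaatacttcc

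The RefSeq promoter table held 38 promoters for 35 of the 46 members. The NRF-1 letters stood in 6 of these 38 windows (15.8%), those of Atp5g2, Atp5k, Atp5l, Cox6a1, Cycs and Sdhb, against 2.26% of all 32851 promoters. The letters CCGGAAGT, an ETS motif bound by NRF-2, stood in 3 (7.89%), those of Atp5h, Uqcr11 and Uqcrh, against 2.88% of all. The CRE letters stood in 2 (5.26%), those of Cycs and Uqcrfs1, against 1.55% of all. Both strands were searched, and the 3 motifs do not overlap one another in these windows. In Cycs the CRE letters lie 169 to 162 bases before the start and the NRF-1 letters 60 to 53, and in Uqcrfs1 the CRE letters lie 29 to 22 bases before it. A match describes letters and not a bound site. The log2 difference (Rsk2-KO minus WT) was 0.56 for Cycs. It was −0.21 for Uqcrfs1, which shares the CRE letters, and −0.27 for Cox6a1, which shares the NRF-1 letters. None of these genes had an adjusted p under 0.05 in limma, and any link of motif to direction was not tested.

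Over the 7867 genes tested, the first principal component held 40.2% of the variance, and which arrays it separated was not examined. The arrays numbered 3, 1 of each genotype, stood apart from the other 4. In 20.0% of genes both lay above the other 4, and in 11.5% both lay below. Their ratio of 3′ to 5′ signal for Actb, a measure of RNA integrity, was 2.22 to 2.24, against 1.499 to 1.63 on the other arrays. Results are therefore also given for the arrays numbered 1 and 2 alone and for the pair numbered 3. The brightest probe set of Rps6ka3 had signals of 99.2, 98.4 and 87.0 on Rsk2-KO 1, 2 and 3 and 74.2, 59.7 and 89.2 on WT 1, 2 and 3. Rps6ka3 did not read lower on the arrays labelled Rsk2-KO (log2 difference 0.37, SE 0.18, limma adjusted p = 0.617), and where its probe sets lie relative to the disrupted part was not analysed here, so they check nothing. Markers of the main brain cells were detected: the lists of neurons, astrocytes, oligodendrocytes and microglia lay above the filter in full, and no marker passed the test. The 4 kept neuronal markers summed to signals of 4643 to 5089 on the Rsk2-KO arrays and 4152 to 4852 on the WT arrays, and the 4 astrocyte markers to 1345 to 1484 and 1338 to 1499. The 3 oligodendrocyte markers summed to 3867 to 4236 and 3262 to 4152, and the 4 microglial markers to 854 to 911 and 900 to 1013. The 3 endothelial markers summed to 203 to 210 on the Rsk2-KO arrays and 212 to 260 on the WT arrays. These sums did not overlap, but the groups overlapped in each of Flt1, Cldn5 and Pecam1. Brighter genes weigh more in a sum. The 2 kept choroid plexus markers summed to 536 to 1663 on the Rsk2-KO arrays and 703 to 2165 on the WT arrays. In whole tissue, fewer cells of a type and less RNA per cell cannot be told apart, and the part of these markers in the differences below was not tested.

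Respiratory genes of all 4 complexes had slightly lower signals on the Rsk2-KO arrays than on the WT arrays, but no single gene passed the test. Of the 46 members, 42 lay above the filter on dim probe sets, a mean signal of 19.2. Among these 42, the log2 difference (Rsk2-KO minus WT) was below 0 in 36, or 85.7%, against 56.4% of all genes tested. Their median was −0.18, against −0.04 for all genes. It was −0.09 with the mean of all kept probe sets of a gene, −0.10 with the trend on gene span removed and 0.032 between the arrays numbered 3. Members with an adjusted p under 0.05 in limma numbered 0 of 42, where percent called over all genes was 0%; 2 members, Uqcrc1 and Cox8a, had an unadjusted p under 0.05, against 7.49% of all genes. The member adjusted p values ran from 0.617 to 0.990. In 4 members, Sdhd, Uqcrq, Cox8a and Atp5g1, every Rsk2-KO signal lay below every WT signal; 8.76% of all genes did so, close to this share of members. No member lay above in the same way, against 5.47% of all genes.

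**Figure D1:**
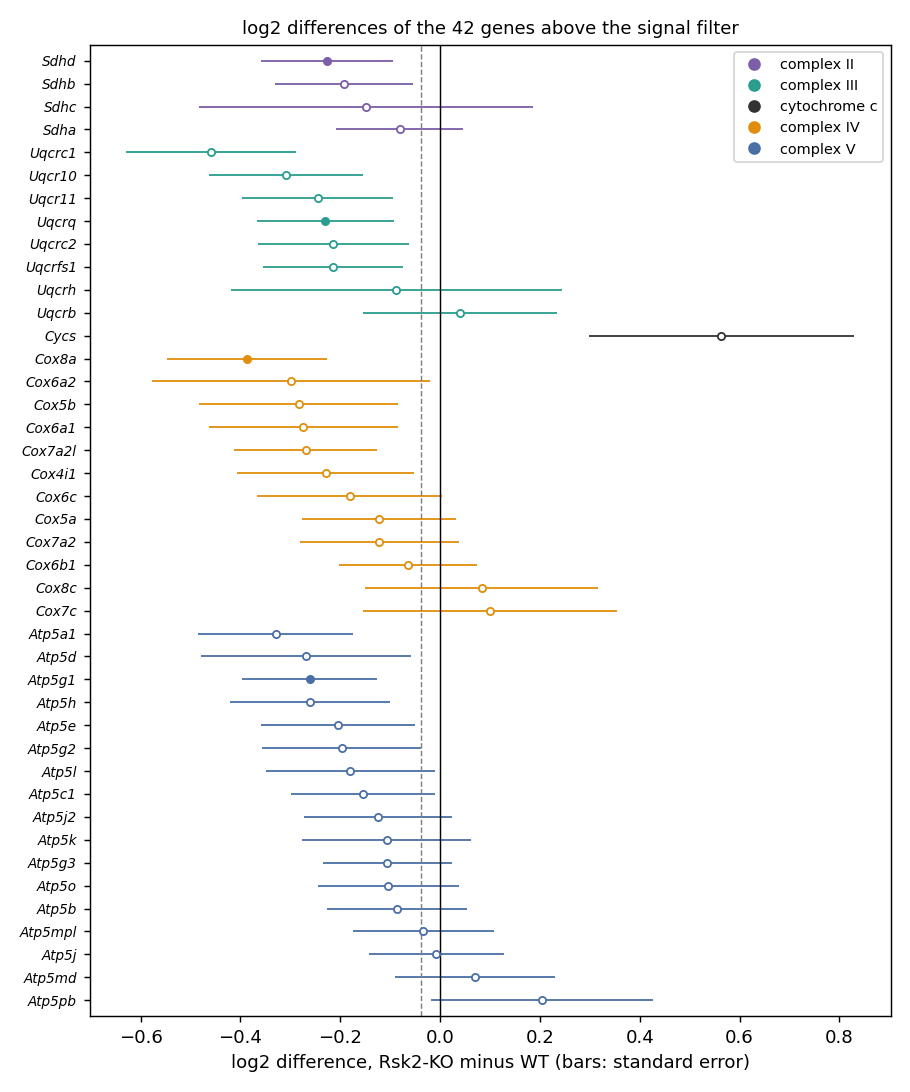
log2 difference between Rsk2-KO and WT (x axis) with its standard error (bars, from limma on 3 arrays a group) for the 42 members above the signal filter, ordered within each complex. Filled points are the 4 members whose groups do not overlap, the dashed line is the median of all genes tested (−0.04), and Cycs stands to the right of 0 while 36 members stand to the left.

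The complexes were alike in sign and small in size. All 4 genes of complex II, 7 of 8 of complex III, 10 of 12 kept genes of complex IV and 15 of 17 of complex V had a difference below 0. The medians were −0.17 for complex II, −0.22 for complex III, −0.21 for complex IV and −0.12 for complex V. No test between complexes was made, and the standard deviation of the median level between arrays of a genotype, 0.0802, 0.138, 0.169 and 0.0992 in the same order, is of a similar size to the gaps between these medians. Quantile normalization brought complexes IV and V to −0.10 and −0.07 and left complexes II and III at −0.16 and −0.20. Averaging all kept probe sets of a gene brought complex II to −0.02 and the medians of complexes III, IV and V to −0.15, −0.16 and −0.09.

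The level of each complex on each array, the median deviation of its genes from their 6-array means, shows which arrays carried these medians. For complex III it was −0.26, −0.13 and 0.05 on Rsk2-KO 1, 2 and 3 and 0.27, 0.08 and 0.06 on WT 1, 2 and 3. For complex II it was −0.14, −0.09 and 0.07 against 0.13, 0.10 and 0.06. Rsk2-KO 1 and 2 were low and WT 1 was high in both, while the arrays numbered 3 lay together above 0. For complex IV the values were −0.22, −0.15 and 0.14 against 0.18, −0.09 and 0.14, and for complex V −0.13, −0.12 and 0.04 against 0.20, 0.06 and 0.0051. Rsk2-KO 3 lay within the WT range in complexes II, IV and V and just below it in complex III, and WT 2 lay below 0 in complex IV. Of the 42 members, 20 were highest on WT 1 and 16 were lowest on Rsk2-KO 1 and 10 on Rsk2-KO 2. Without WT 1 the median of all members was −0.12, and that of complex IV −0.13. Leaving out Rsk2-KO 1 put complex IV at −0.11, and leaving out Rsk2-KO 3 put complexes IV and V at −0.31 and −0.22. Complex V was at −0.20 without WT 2.

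**Figure D2:**
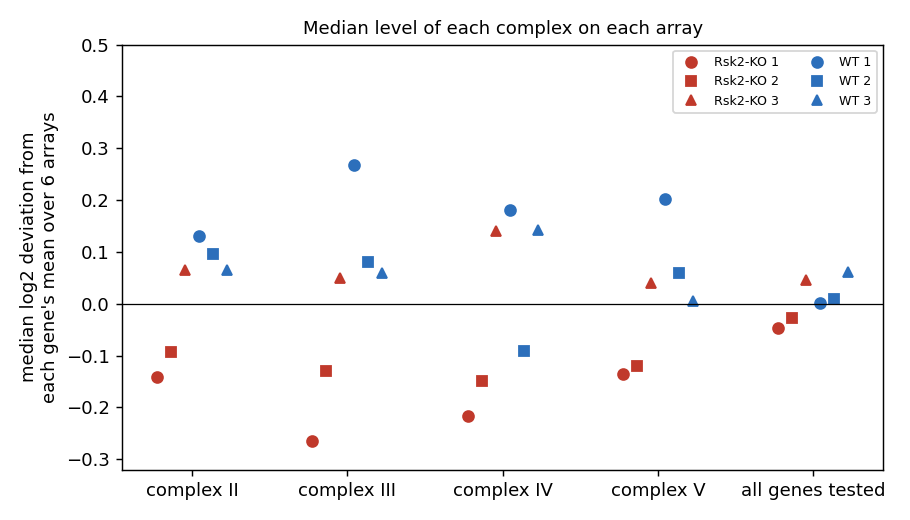
Median log2 deviation from each gene's 6-array mean (y axis) for each complex and for all genes tested, with 1 point per array, coloured by genotype and shaped by array number. Rsk2-KO 1 and 2 lie lowest in all 4 complexes and WT 1 highest, and the arrays numbered 3 lie at similar levels in each complex.

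The array number changed the sign for many members. Within the arrays numbered 1 and 2, 35 of 42 members were below 0, with a median of −0.25, against 56.4% of all genes. Between the arrays numbered 3, 1 against 1 and so with no test, 16 of 42 were below 0, with a median of 0.032, against 51.6% of all genes. The medians between the arrays numbered 3 were −0.012, −0.021, 0.016 and 0.079 for complexes II, III, IV and V, against −0.23, −0.32, −0.25 and −0.23 within the arrays numbered 1 and 2. In all, 21 members were lower within arrays 1 and 2 and higher between the arrays numbered 3, 14 were lower in both, 5 were higher in both and 2 were the reverse of the first kind. Members called within the arrays numbered 1 and 2 numbered 0 (lowest limma adjusted p = 0.0634), against 3.61% of all genes. With array weights, which down-weight arrays that fit the model poorly, 0 members were called (lowest limma adjusted p = 0.0703), against 0.648% of all genes.

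**Figure D3:**
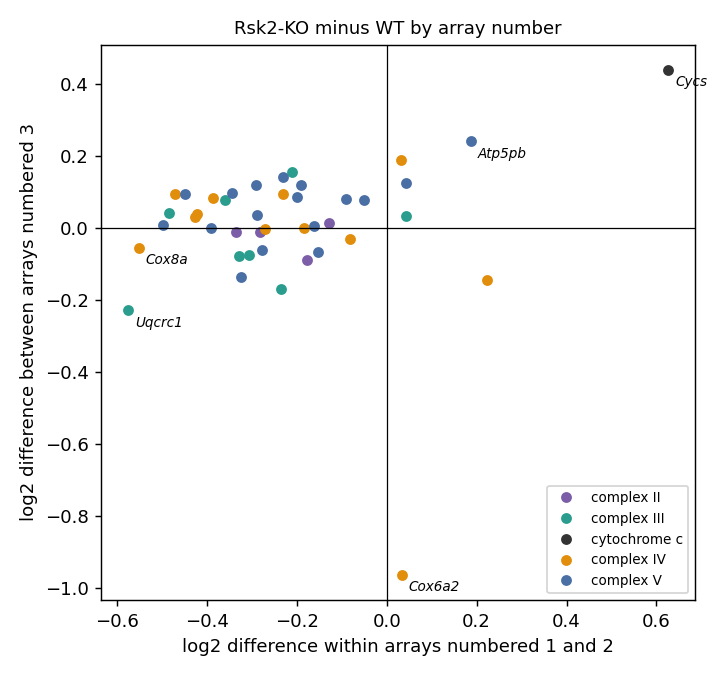
log2 difference between Rsk2-KO and WT for each of the 42 members within the arrays numbered 1 and 2 (x axis) and between the 2 arrays numbered 3 (y axis), coloured by complex. Most points lie left of 0 on the x axis but spread around 0 on the y axis; Cycs is above 0 on both and Uqcrc1 below 0 on both.

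Complex II was described in full. Sdhd, a membrane anchor, had signals of 315, 302 and 365 on Rsk2-KO 1, 2 and 3 and 401, 377 and 368 on WT 1, 2 and 3. The groups did not overlap, but Rsk2-KO 3 and WT 3 were nearly equal. Mean Sdhd signal was 327 ± 33.1 on Rsk2-KO and 382 ± 17.0 on WT arrays (SD, n = 3 per genotype), and the log2 difference was −0.23 (SE 0.13, limma adjusted p = 0.628). A dim second probe set of Sdhd had the opposite sign (0.57, SE 0.87). Sdhb, the iron-sulfur subunit, had 710, 808 and 932 against 914, 928 and 939, a log2 difference of −0.19 (SE 0.14); the 3 WT arrays were close together and Rsk2-KO 3 reached them. Sdha, the flavoprotein that binds succinate, had 1005, 1029 and 1156 against 1139, 1084 and 1145. Its log2 difference of −0.08 (95% interval −0.36 to 0.20) was the smallest in size of the complex. The second probe set of Sdha was at −0.03 (SE 0.12). Sdhc, the other anchor, had 325, 278 and 149 against 330, 351 and 159. Both arrays numbered 3 were at about the same low level, and the groups overlapped (log2 difference −0.15, SE 0.33). The sign for Sdhc turned to 0.19 without Rsk2-KO 3, to 0.013 without WT 1 and to 0.057 without WT 2. As for Sdhd, the second probe set of Sdhc had the opposite sign (0.17, SE 0.22).

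**Figure D4:**
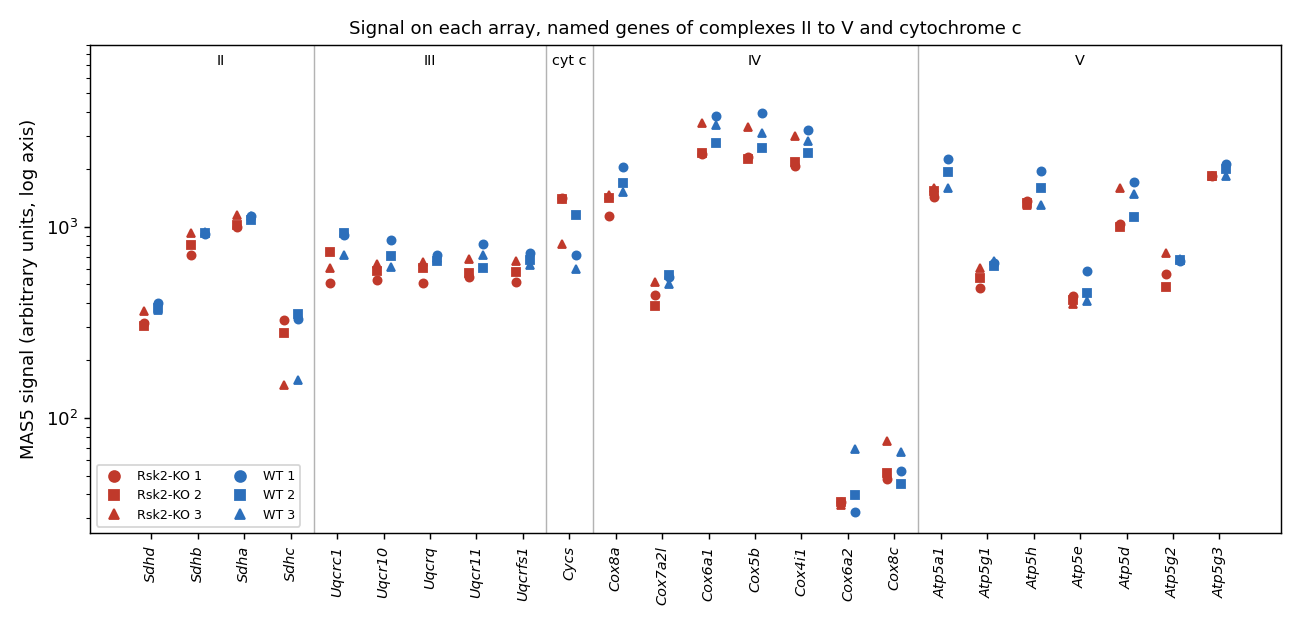
MAS5 signal (log y axis, arbitrary units) of the named genes above the filter, with Rsk2-KO arrays in red, WT arrays in blue and array number as the shape; levels of different genes are not comparable, as each has its own probes. Within most genes the red and blue points overlap, and in Sdhc both arrays numbered 3 lie far below the others.

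Complex III held the largest downward difference. Uqcrc1, a core subunit of the matrix side, had signals of 511, 741 and 607 on Rsk2-KO 1, 2 and 3 and 908, 925 and 712 on WT 1, 2 and 3. Rsk2-KO 2 lay above WT 3, so the groups overlapped. Mean Uqcrc1 signal was 620 ± 115 on Rsk2-KO and 848 ± 119 on WT arrays (SD, n = 3 per genotype), and the log2 difference was −0.46 (SE 0.17, 95% interval −0.84 to −0.08), which did not pass over all genes (limma adjusted p = 0.617). Uqcrc1 was lower in both sets of arrays, at −0.57 in those numbered 1 and 2 and at −0.23 in those numbered 3. It ran from −0.60 to −0.33 as each array was left out.

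The small subunits of complex III differed less. Uqcr10 had 526, 586 and 637 against 857, 702 and 619, a log2 difference of −0.31 (SE 0.15), with WT 3 within the range of the Rsk2-KO arrays. Its 2 other kept probe sets had the opposite sign, 0.05 and 0.18. Uqcrq had 508, 610 and 655 against 716, 662 and 690, with no overlap but a gap of few units (log2 difference −0.23, SE 0.14), and it was at −0.12 without Rsk2-KO 1. Uqcr11 had 549, 573 and 678 against 813, 610 and 716 (−0.25, SE 0.15). Uqcrfs1, the Rieske iron-sulfur protein that takes electrons from ubiquinol, had 516, 579 and 663 against 729, 675 and 629 (−0.21, SE 0.14). For Uqcr10 and Uqcrfs1 the sign turned between the arrays numbered 3, to 0.042 and 0.077. The remaining members were Uqcrc2, the other core subunit (−0.21), the hinge subunit Uqcrh (−0.09) and Uqcrb (0.04). The other kept probe set of Uqcrc2 had the opposite sign, 0.13 (SE 0.17). Uqcrh had 561 and 504 on the arrays numbered 3 against 953 to 1266 elsewhere, and Uqcrb 3624 and 3541 against 2320 to 2755. At these probe sets both moved with array number and in opposite directions. The other kept probe set of Uqcrb moved the same way as Uqcrh, with 226 and 248 against 261 to 466. Its log2 difference between genotypes was 0.35 (SE 0.26).

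Cycs, the electron carrier cytochrome c between complexes III and IV, differed the other way. Its signals were 1412, 1400 and 818 on Rsk2-KO 1, 2 and 3 and 717, 1158 and 603 on WT 1, 2 and 3. Rsk2-KO 1 and 2 were the highest of the 6, while Rsk2-KO 3 lay below WT 2, so the groups overlapped. Mean Cycs signal was 1210 ± 340 on Rsk2-KO and 826 ± 293 on WT arrays (SD, n = 3 per genotype), a 1.48-fold difference and the largest in size among the 42 members above the filter (log2 0.56, SE 0.27, 95% interval −0.03 to 1.15, limma adjusted p = 0.617). In the arrays numbered 1 and 2 it was 0.63, in those numbered 3 it was 0.44, and it ran from 0.37 to 0.84 as each array was left out. The lowest value came without WT 3 and the highest without WT 2. The 3 probe sets of Cycs shared the sign. The second had 910, 931 and 1001 against 850, 780 and 895, with no overlap (log2 difference 0.17, SE 0.12), and the third had 619, 626 and 514 against 437, 447 and 519 (0.32, SE 0.14). The probe sets thus gave sizes from 0.17 to 0.56 for 1 gene.

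In complex IV, the cytochrome c oxidase, Cox8a differed most. Cox8a is the smallest nuclear-encoded subunit, in its widely expressed form. Its signals were 1148, 1414 and 1462 on Rsk2-KO 1, 2 and 3 and 2057, 1695 and 1520 on WT 1, 2 and 3, with no overlap. Mean Cox8a signal was 1341 ± 169 on Rsk2-KO and 1757 ± 274 on WT arrays (SD, n = 3 per genotype), and the log2 difference was −0.39 (SE 0.16, 95% interval −0.74 to −0.03, limma adjusted p = 0.617). The other kept probe set of Cox8a also had no overlap between groups (961, 1224 and 1314 against 1804, 1432 and 1395, log2 difference −0.41, SE 0.17). Cox8a was at −0.55 in the arrays numbered 1 and 2 and at −0.06 in the pair numbered 3. Cox7a2l had 443, 384 and 515 against 547, 558 and 502 (−0.27, SE 0.14), with Rsk2-KO 3 above WT 3; its 3 probe sets ran from −0.45 to −0.27.

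Cox6a1, Cox5b and Cox4i1 shared the arrays on which they were highest. Cox6a1, the widely expressed form of subunit VIa, had 2406, 2433 and 3508 against 3822, 2765 and 3435 (−0.27, SE 0.19). Cox5b had 2332, 2278 and 3325 against 3937, 2594 and 3117 (−0.28, SE 0.20). Cox4i1, a regulatory subunit that is the usual form in brain, had 2073, 2194 and 2986 against 3204, 2425 and 2816 (−0.23, SE 0.18). In each, WT 1 was highest and Rsk2-KO 3 was the next, so the 2 genotypes interleaved. Between the arrays numbered 3 the signs turned, to 0.030, 0.093 and 0.084 for Cox6a1, Cox5b and Cox4i1, and to 0.037 for Cox7a2l. The remaining bright members of complex IV were Cox6c (−0.18), Cox5a (−0.12), Cox7a2 (−0.12) and Cox6b1 (−0.06). The other kept probe sets of Cox5a had the opposite sign, 0.07 and 0.25. Cox7c (0.10) was read from a dim probe set with signals of 19.5 to 27.2.

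Forms of complex IV subunits that are known from other tissues were dim. Cox4i2, a form found mainly in lung, had signals of 13.8 to 15.6 over the 6 arrays, Cox6b2, a testis form, 15.4 to 22.6, Cox7a1, of heart and skeletal muscle, 6.96 to 15.5, and Cox8b, also of muscle, 1.86 to 21.6. All 4 lay below the filter of 19.2 in mean log2 signal and were not tested. Cox6a2, the muscle form of subunit VIa, lay above it at 36.4, 36.5 and 35.1 on Rsk2-KO 1, 2 and 3 and 32.1, 39.7 and 68.5 on WT 1, 2 and 3. WT 3 alone set its difference apart from 0: the log2 difference was −0.30 (SE 0.28), and 0.015 without WT 3. Cox8c, a testis form, had 47.8, 51.8 and 75.6 against 52.5, 45.1 and 66.4 (0.08, SE 0.23), with both arrays numbered 3 highest; its sign turned without Rsk2-KO 3 (−0.12) and without WT 2 (−0.047).

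Complex V, the ATP synthase, has a catalytic F1 head, a rotating ring in the membrane and a stalk that holds the head still. Among the F1 subunits, Atp5a1 (alpha) had signals of 1431, 1539 and 1603 on Rsk2-KO 1, 2 and 3 and 2264, 1938 and 1595 on WT 1, 2 and 3. WT 3 fell within the Rsk2-KO range, and the other WT arrays lay above it. The log2 difference was −0.33 (SE 0.16, limma adjusted p = 0.617), −0.50 in the arrays numbered 1 and 2 and 0.0068 in the pair numbered 3. Atp5d (delta) had 1038, 999.9 and 1592 against 1711, 1130 and 1492 (−0.27, SE 0.21; 0.094 between the arrays numbered 3) and Atp5e (epsilon) 435, 416 and 395 against 588, 452 and 412 (−0.21, SE 0.15). Atp5e was highest on WT 1, and the other 5 arrays lay within 395 to 452. Atp5c1 (gamma) and Atp5b (beta), the subunit that holds the catalytic sites, differed by −0.15 and −0.09. At these probe sets the 5 F1 subunits shared a sign. The second probe set of Atp5a1 was at −0.19 and the third, a dim one, at 0.00049 (SE 0.30), and a dim second probe set of Atp5c1 was at 0.39 (SE 0.34).

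The membrane ring is built from the c subunit, and Atp5g1, Atp5g2 and Atp5g3 encode the same mature protein with different targeting sequences. Atp5g1 had 478, 540 and 607 against 650, 621 and 667, with no overlap (means 542 ± 64.7 and 646 ± 23.0, SD, n = 3 per genotype; log2 difference −0.26, SE 0.13, limma adjusted p = 0.617). Atp5g2 had 564, 485 and 730 against 660, 668 and 684 (−0.20, SE 0.16), with Rsk2-KO 3 the highest of the 6. Atp5g3 had 1855, 1844 and 1856 against 2137, 2001 and 1851 (−0.11, SE 0.13). The Rsk2-KO arrays of Atp5g3 lay close together (SD 6.61), and WT 3 lay among them. Between the arrays numbered 3 Atp5g2 was at 0.096 and Atp5g3 at 0.0045, while Atp5g1 stayed lower at −0.14.

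Of the stalk and membrane subunits, Atp5h (subunit d) had 1366, 1337 and 1307 against 1952, 1609 and 1307, a log2 difference of −0.26 (SE 0.16). Rsk2-KO 3 and WT 3 were equal to within 1 unit. The other kept probe set of Atp5h had the opposite sign, 0.16. Atp5o (the oligomycin-sensitivity protein) and Atp5j (coupling factor 6) differed by −0.10 and −0.0074, and Atp5pb (subunit b) by 0.20 (SE 0.22). The other kept probe set of Atp5o had the opposite sign, 0.34 (SE 0.50). Atp5pb had 1514, 1455 and 973 against 1330, 1278 and 824, with both arrays numbered 3 lowest. The small membrane subunits Atp5l (g), Atp5j2 (f), Atp5k (e), Atp5mpl and Atp5md ranged from −0.18 to 0.07. The other kept probe sets of Atp5k were at −0.12 and 0.016.

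Of the 42 members, 14 lay wholly to 1 side on the arrays numbered 3: 8 were higher on both than on the other 4 arrays, against 20.0% of all genes, and 6 were lower, against 11.5%. At the brightest probe sets, higher there were Sdha, Sdhb, Uqcrb, Cox6c, Cox7a2, Cox6b1, Cox8c and Atp5g2. Lower were Sdhc, Uqcrh, Atp5h, Atp5e, Atp5pb and Atp5md. Both kinds occurred in complexes II, III and V. Other kept probe sets of these genes often differed. The second set of Cox6c was lower there (232 and 269 against 593 to 637), as was that of Uqcrb (226 and 248 against 261 to 466). That of Cox7a2 was also higher there. The second sets of Sdha, Sdhc, Cox6b1, Atp5h and Atp5pb lay wholly to neither side. The sign of the genotype difference held in 30 of 42 members whichever of the 6 arrays was left out, and 29 of these were below 0. Of the 23 members with several probe sets above the filter, 13 had the same sign in all of them; Atp5a1, with the dimmest of its probe sets next to 0, was not among these.

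Over all genes with a known span, longer genes had slightly higher log2 differences (Spearman correlation 0.236, n = 7861 genes measured on the same 6 arrays). The members are short genes, with a median genomic span of 6.75 kb against 23.6 kb for all genes tested, and between 3.44 kb and 9.13 kb, their quartiles, the 1270 genes tested had a median log2 difference of −0.11. Once the trend of signal with span had been removed from each array, the median of all members was −0.10, with 31 of 42 below 0. Over the 7861 genes with a span the median was then −0.0085, with 4030 below 0. The medians of complexes II, III, IV and V were −0.12, −0.13, −0.11 and −0.04. Within the members themselves the log2 difference and span had a Spearman correlation of 0.166 (n = 42 genes measured on the same 6 arrays). Among the 420 genes with a mean signal between the members' quartiles of 639 and 1516, the median log2 difference was −0.08. The part of span and brightness in the members' median was not tested beyond this.

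The other genes of the pathway were described in the same way. Of the 39 genes of complex I and its assembly factors with symbols beginning Nduf, 30 were below 0 with a median of −0.08 (0.0090 with the span trend removed and 0.066 between the arrays numbered 3), so its sign turned under both. In 3 of the 39 the groups did not overlap, on the lower side, against 8.76% of all genes. Ndufa8, a subunit of the membrane arm, had 646, 646 and 669 against 849, 747 and 755 (−0.26, SE 0.12), with no overlap, and Ndufaf5, an assembly factor, was at −0.33 (SE 0.15). Among 25 assembly factors of complexes II to V, 15 were below 0 (median −0.07). The median was 0.012 with the span trend removed and 0.041 between the arrays numbered 3. In 1 of the 25 the groups did not overlap on the lower side, against 8.76% of all genes. In 1 they did not overlap on the higher side, against 5.47%. Surf1, which acts in complex IV assembly, had 228, 220 and 249 against 275, 266 and 293, with no overlap (−0.26, SE 0.13; −0.23 between the arrays numbered 3), and Uqcc3, of complex III assembly, was at −0.45 (SE 0.22; 0.014 between the arrays numbered 3). Of 4 genes for carriers and the ATP synthase inhibitor, 3 were below 0, with a median of −0.16 (0.080 between the arrays numbered 3); Slc25a4, an ADP/ATP exchanger, and Slc25a3, the phosphate carrier, differed by −0.18 each. None of these genes passed the test over all genes (limma adjusted p of 0.617 or more).

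More regulators of mitochondrial gene expression lay above 0 than below it. Of 16 kept genes, 10 were above 0 and 6 below (median 0.13). In 3 of the 16, all Rsk2-KO signals lay above all WT signals, against 5.47% of all genes. Their summed signal was 1212 to 1267 on the Rsk2-KO arrays and 1114 to 1142 on the WT arrays, with no overlap. Brighter genes weigh more in such a sum. Ppargc1a, the coactivator PGC-1alpha that drives mitochondrial biogenesis, had 102, 107 and 74.4 against 57.5, 66.9 and 72.3 (log2 difference 0.52, SE 0.19, limma adjusted p = 0.617). Rsk2-KO 1 and 2 were well above the rest, while the arrays numbered 3 differed by 0.04. Gabpa, the DNA-binding subunit of NRF-2, had 63.1, 59.9 and 58.8 against 35.2, 48.8 and 51.1. Its log2 difference was 0.45 (SE 0.20), and 0.20 between the arrays numbered 3. The genes of NRF-1 and CREB went the other way, with Nrf1 at −0.12 (SE 0.29) and Creb1 at −0.26 (SE 0.34), both at low signal. In the tricarboxylic acid cycle without complex II, 9 of 12 kept genes were below 0 (median −0.10, and 0.040 between the arrays numbered 3). In 2 of the 12 the groups did not overlap on the lower side, against 8.76% of all genes. In 1 they did not overlap on the higher side, against 5.47%. This was Sucla2, a succinyl-CoA ligase subunit 1 step before complex II. It had 517, 492 and 451 against 258, 393 and 368 (0.54, SE 0.17, limma adjusted p = 0.617). Dld, a dehydrogenase subunit shared by several enzymes, was at 0.35 (SE 0.18), 0.56 within the arrays numbered 1 and 2 and −0.050 in the pair numbered 3. The smallest two-sided p of an exact permutation test on 3 arrays per genotype is 0.1, and such tests were not run.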

How the data were processed

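Per the labels, hippocampal RNA of 3 Rsk2-KO and 3 WT pools was hybridised to Affymetrix arrays. The values the authors deposited are MAS5 signal intensity on a linear scale, per the submitters' processing notes; its version was not given in the sources used here. The mean after trimming 2% at each end was 100.03 to 100.04 in every array. A pair of arrays shared at most 1 equal signal. The platform annotation gave 1 symbol to 20393 of the 22690 probe sets, several to 691 and none to 1606; 12559 with 1 symbol passed a filter at the 40th percentile of mean log2 signal. The symbols of RefSeq (GRCm38.p6) gave the same 46 members.

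Genes, each at its brightest probe set, were compared in limma 3.58.1 (R 4.3.3; lmFit, eBayes with intensity trend, Benjamini-Hochberg over 7867 genes), and single probe sets by the same model fitted on all 12559; tables were made in Python 3.11.15. The code was tested on simulated data. Precision is limited by the 3 arrays a group; the median standard error was 0.189. Whether any animal contributed to several pools is not in the labels, so the p-values cover only the variation among these pools, which may be technical. Named were all of complex II and Cycs, the 5 members of smallest p in complexes III, IV and V, members without overlap, tissue forms of complex IV, c subunit genes, up to 2 genes per pathway list and Rps6ka3; others are given in brief. Members and lists were chosen with earlier results of these data known.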

Additional observations from a re-analysis of the deposited data

How the results depend on the processing

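Scaling (quantile, median centring), log offset, filter, variance model (no trend, robust prior, array weights), blocks, arrays left out, span trend, choice of probe set, symbols and threshold were each altered. The count of members called was 0 under every one that gives a call. Over all genes the count called was 0 in the main analysis, with 589 genes at an unadjusted p under 0.05, but 51 with array weights, 284 within the arrays numbered 1 and 2, 1 with the block for the arrays numbered 3 and 1 with the replicate block. The labels do not say whether array numbers pair the samples. Deviations of same-numbered arrays correlated at 0.0740, 0.366 and 0.397 across genes. Rsk2-KO 2 and 3 correlated best with the WT array of the same number, but Rsk2-KO 1 correlated best with WT 2 (0.196).

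Medians between the arrays numbered 3 were 0.032 for all members, −0.012 for complex II, −0.021 for complex III, 0.016 for complex IV and 0.079 for complex V. The mean of all kept probe sets moved complex II to −0.022. Complex V was −0.25 with array weights and −0.23 within the arrays numbered 1 and 2. With each array left out, the median of all members ran from −0.25 to −0.12. Between the arrays numbered 3 the sign turned for Sdha (0.014), Uqcr10 (0.042), Uqcrfs1 (0.077), Cox7a2l (0.037), Cox6a1 (0.030), Cox5b (0.093), Cox4i1 (0.084), Atp5a1 (0.0068), Atp5d (0.094), Atp5g2 (0.096) and Atp5g3 (0.0045). With the mean of all probe sets it turned for Sdhd (0.17) and Sdhc (0.010). With each array left out, Sdhc ran from −0.51 to 0.19, Cox6a2 from −0.53 to 0.015 and Cox8c from −0.12 to 0.23. Cox6a2 was 0.033 within the arrays numbered 1 and 2, and Cox8c −0.012 with array weights. The cause of these turns was not tested. Depth does not apply to arrays; signal over background was judged by the filter alone.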

Other observations

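Glycolysis genes, which make pyruvate for the mitochondria, were below 0 in 13 of 13 kept members, against 56.4% of all genes. Their median log2 difference was −0.22, and −0.15 with the span trend removed. Pfkl, a phosphofructokinase, had signals of 490, 474 and 626 on Rsk2-KO 1, 2 and 3 and 627, 705 and 678 on WT 1, 2 and 3 (log2 difference −0.35, SE 0.15, limma adjusted p = 0.617), and Pkm, pyruvate kinase, was at −0.26 (SE 0.14). In the arrays numbered 1 and 2 the list had a median of −0.31, and in those numbered 3 of −0.02. Mitochondrial ribosomal protein genes were below 0 in 51 of 74 members (median −0.09, but −0.0086 with the span trend removed and 0.027 between the arrays numbered 3), and 8 had no overlap on the lower side, against 8.76% of all genes. Mrps23 was lower by a similar amount in both sets of arrays, at −0.48 within those numbered 1 and 2 and −0.49 between those numbered 3 (log2 difference −0.49, SE 0.18), and Mrpl50 was higher by 0.33 in the first and 0.32 in the second. ND5, a subunit of complex I encoded in the mitochondrial genome, had 4517, 4454 and 3862 against 2921, 4276 and 4812 (0.12, SE 0.19).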
